A study of Mus musculus with 12 samples.

Results

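The 10 skeletal muscle genes Myod1, Myog, Myh3, Myh8, Myh1, Acta1, Actc1, Tnnt1, Ttn and Des were followed among the 19714 genes that the arrays could name. They were chosen by name, though with earlier results of these data known. All 10 have a probe that matches a RefSeq accession of the gene. RNA had been hybridized to 12 single-colour Agilent mouse arrays, 3 biological replicates in each of 4 groups. The first group was OCKS-treated MEFs on day 4 of OCKS + chem + VA5 + Dnmt1-KD, where OCKS is a tandem vector for Oct4, c-Myc, Klf4 and Sox2. The second was OS-treated MEFs on day 4 of OS + chem + VA5 + Dnmt1-KD, with separate vectors for Oct4 and Sox2 alone. In both, chem stands for tranylcypromine, BIX-01294 and DZNep, which inhibit enzymes that modify histones, VA5 for the histone deacetylase inhibitor valproic acid and the TGF-β receptor inhibitor ALK5i, and Dnmt1-KD for siRNA against the maintenance DNA methyltransferase. The others were female PGCs (primordial germ cells) from the genital ridges of E15.5 embryos and control MEFs (mouse embryonic fibroblasts).

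All MEFs, treated or not, are labelled male and come from C57BL6/J Vasa::RFP Tg mice crossed with C57BL6/J mice of the Oct4_delta_PE-GFP Tg line, while the PGCs come from MCH mice crossed with that line. PGCs and control MEFs therefore differ in cell type, sex, strain and culture at once, and these cannot be told apart. The treated cells received plasmids and siRNA by lipofection and no sort of them is described for the arrays, so a treated array reads the whole culture. Whether control MEFs received a control siRNA or the solvents is not given in the sources used here. In such bulk RNA, fewer cells of a type and less RNA per cell cannot be told apart.

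Skeletal muscle forms when precursors marked by Pax3 and Pax7 switch on the MyoD family of transcription factors, which pair with E proteins and bind E boxes in muscle genes. Myod1 commits cells to the lineage, and Myog drives the terminal differentiation in which myoblasts leave the cell cycle and fuse into fibres. The fibres fill with sarcomeres, in which myosin thick filaments pull on actin thin filaments under the control of troponin and tropomyosin, titin spans the distance from Z disc to M band, and desmin ties neighbouring Z discs together. Several of these genes are also active outside skeletal muscle, in heart, smooth muscle or activated fibroblasts.

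A signal is given here as a percentage of the 75th percentile of the signals on its array. Levels of different probes are not comparable, and each gene is compared only with itself. A sum over a marker list weighs its brightest probes most, and is set only against the same sum in another group. The 75th percentile lay between 1147.4 and 2924.8 intensity units and the median background between 23 and 33.5, and 71.9 to 85.6% of the spots were well above background. Fibroblast markers were well above background on all 3 arrays of each group for 10 of 10 genes, with summed signals of 31840 to 51961% in OCKS-treated, 34929 to 50696% in OS-treated and 64626 to 92214% in control MEFs, against 534 to 603% in PGCs. Of these 10, 6 fell with OCKS and 5 with OS, while Pdgfra and Dcn rose with both. All 10 were lower in PGCs than in control MEFs. Germ cell markers summed to 15369 to 19876% in PGCs and to 92.4 to 105% in control MEFs. Gonadal somatic cell markers summed to 3095 to 3574% in PGCs and 3572 to 4006% in control MEFs, with 10 of 10 above background in both, and 5 of them (Wt1, Nr5a1, Gata4, Amhr2 and Star) were higher in PGCs while 3 (Fst, Wnt4 and Lhx9) were lower. Leukocyte markers fell for 9 of 9 genes with each treatment, to summed signals of 531 to 669% with OCKS and 437 to 518% with OS, against 2530 to 2618% in control MEFs. In PGCs they summed to 1531 to 2027%, with 9 of 9 above background on all 3 arrays and 5 lower than in control MEFs. The part of these other cell types in the values below was not tested.

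**Figure D1:**
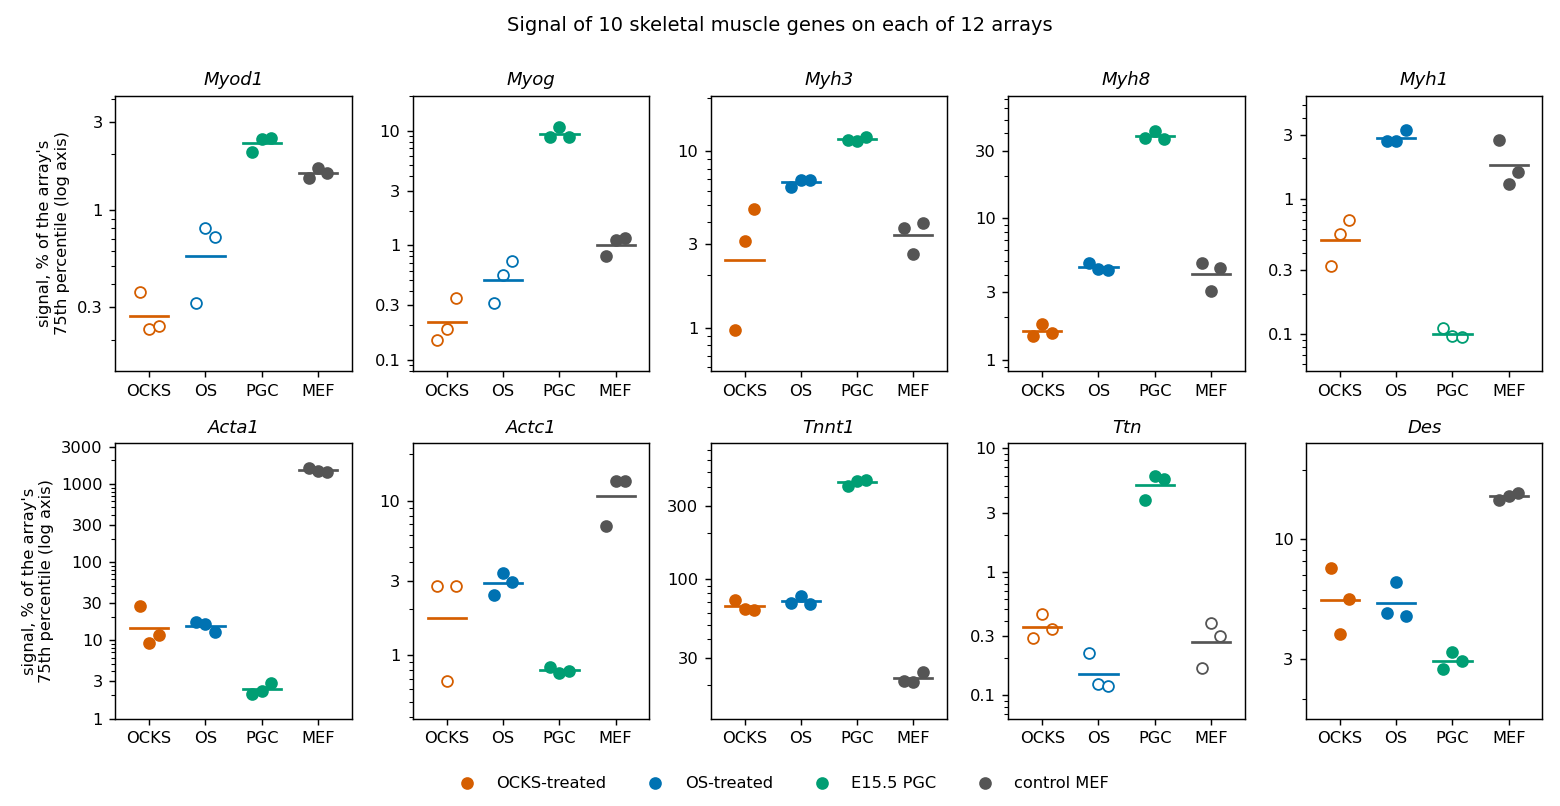
Signal of the 10 skeletal muscle genes on each of the 12 arrays, in % of the array's 75th percentile on a log axis, for OCKS-treated MEFs, OS-treated MEFs, E15.5 PGCs and control MEFs. Each circle is an array and each bar the mean of the log2 values. Circles are open where the gene was not well above background on all 3 arrays of the group. Acta1 fills the widest range, with control MEFs at 1436 to 1581% and every other array at 27.3% or less.

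The list did not move as a block. With OCKS, 7 of 9 members tested fell relative to control MEFs (Acta1, Actc1, Myod1, Myog, Myh1, Des and Myh8) and 1 rose (Tnnt1), where 14.6% of the 16153 genes tested fell and 11.2% rose. Of these 7, Myod1, Myog, Myh1 and Actc1 were not above background on all 3 OCKS arrays and were tested through the control arrays, and with the background filter on both groups 3 fell (Acta1, Des and Myh8). With OS, 2 of 9 fell (Acta1 and Des) and 1 rose (Tnnt1), where 13.4% of 16260 genes fell and 10.7% rose. In PGCs, 4 of 10 were lower than in control MEFs (Acta1, Myh1, Actc1 and Des) and 4 higher (Tnnt1, Ttn, Myh8 and Myog), where 25.2% of 17361 genes were lower and 31.8% higher. A call required an adjusted p (Benjamini-Hochberg over all genes tested) under 0.001 in limma and at least a 2-fold change, with 3 arrays per group throughout. The median log2 difference over the members tested was -1.85 with OCKS, -1.01 with OS and 1.17 in PGCs, beside medians over all genes tested of -0.19, -0.21 and 0.30. With members on no array of a group above background set at their bound, the medians were -1.51 with OCKS and 1.17 in PGCs. With no overlap between arrays, 7 of 9 members lay below and 1 above control MEFs with OCKS (43.6 and 27.7% of all genes tested), 5 below and 2 above with OS (44.8 and 27.1%), and 4 below and 6 above in PGCs (36.2 and 48.2%). At an adjusted p under 0.05 and 2-fold, Actc1, Myod1 and Myog joined Acta1 and Des as lower with OS, 5 of 9 against 16.3% of all genes. The 3 comparisons share the control arrays, so they are not independent of each other.

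All 10 members were well above background somewhere, on all 3 arrays of the group for 5 in OCKS-treated MEFs, 7 in OS-treated MEFs, 9 in PGCs and 9 in control MEFs. Ttn was on no array above background in any MEF group, and was therefore tested in PGCs only. Myod1 and Myog were above background on no OCKS array, Myh1 on 1 and Actc1 on 2.

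**Figure D2:**
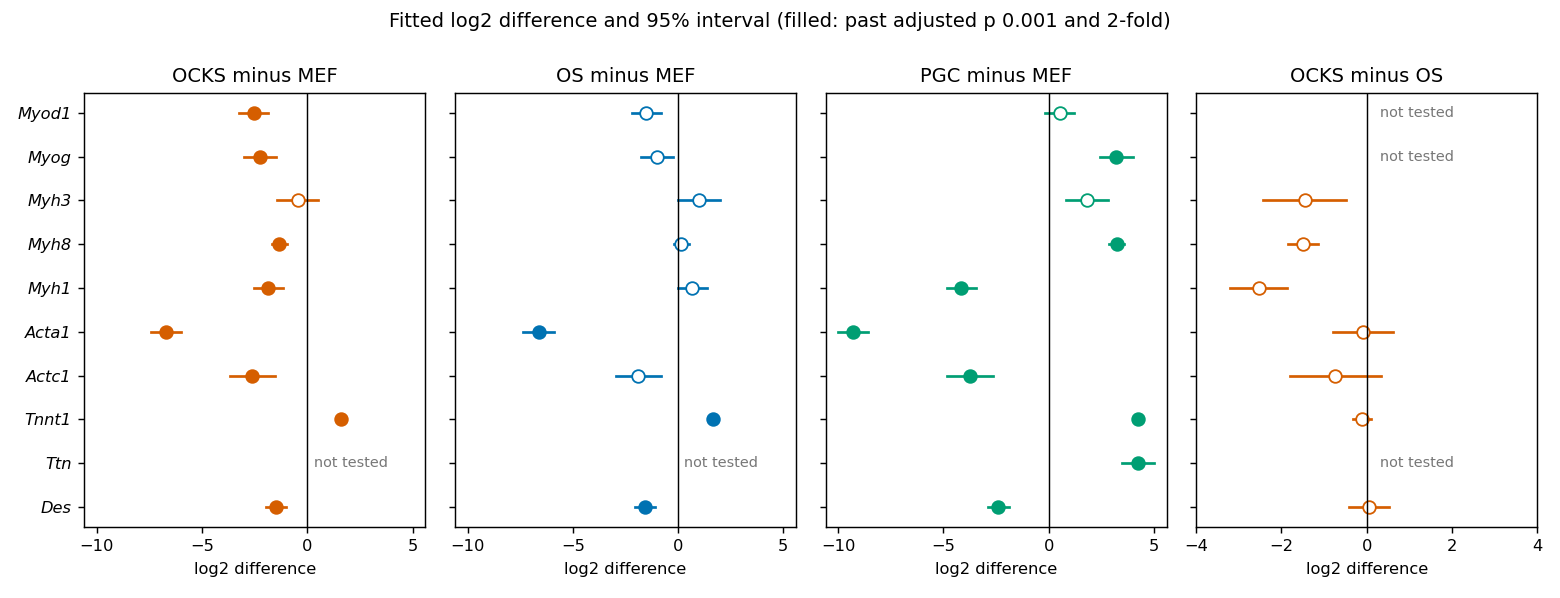
Fitted log2 difference of each member with its 95% confidence interval, for OCKS-treated minus control MEFs, OS-treated minus control MEFs, PGCs minus control MEFs and OCKS-treated minus OS-treated MEFs (the last on a narrower axis). Filled circles passed both thresholds. Acta1 lies at -6.71, -6.62 and -9.30 against control MEFs and Tnnt1 at 1.57, 1.68 and 4.26, while in PGCs Myh1 and Myh8 lie on opposite sides of 0. The points of Myod1 and Myog with OCKS and of Myh1 and Ttn in PGCs are fitted values with 1 group not above background on any array, for which the text gives bounds.

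Both regulators fell with OCKS, to signals not above background on any array, and Myog was higher in PGCs. Myod1, the lineage-determining factor, read 0.364, 0.229 and 0.237% on the OCKS arrays, 0.314, 0.799 and 0.714% on the OS arrays, 2.07, 2.44 and 2.45% on the PGC arrays and 1.50, 1.70 and 1.60% on the control MEF arrays. The OCKS and OS arrays lay below all control arrays, and the PGC arrays above them. With OCKS Myod1 fell at least 2.91-fold, the bound that the background allows (limma, adjusted p = 3.23e-05). Its log2 difference was -1.50 ± 0.31 (SE) with OS, with 2 of 3 arrays above background, and 0.53 ± 0.31 in PGCs, and neither passed the thresholds (limma, adjusted p = 0.00143 and 0.134). The OS difference passed after quantile normalization (-1.21, limma, adjusted p = 0.000716), without OS replicate 1 (-1.08, adjusted p = 0.000885) and without OS replicate 2 (-1.75, adjusted p = 0.000923).

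Myog, which starts terminal differentiation, read 0.148, 0.187 and 0.346% on OCKS arrays, 0.315, 0.555 and 0.723% on OS arrays, 8.82, 10.8 and 8.76% on PGC arrays and 0.813, 1.12 and 1.15% on control MEF arrays. The 4 groups followed the order PGCs, control MEFs, OS, OCKS, and only the OS and OCKS arrays overlapped. Myog was higher in PGCs by 3.22 ± 0.35 on the log2 scale (limma, adjusted p = 5.63e-06), a 9.29-fold difference. With OCKS it fell at least 1.85-fold, a bound short of the 2-fold threshold. The call rests on the fitted 4.77-fold difference (limma, adjusted p = 0.000174), which uses OCKS signals not above background. The OCKS call was lost without control replicate 2 or 3 (limma, adjusted p = 0.00112 and 0.00108). With OS the log2 difference was -1.01 ± 0.34 and not past the threshold (limma, adjusted p = 0.0227), with 1 of 3 arrays above background. The probe is printed 10 times on each array, and the SD of its log2 signal over these spots was 0.046 to 0.060 on PGC arrays and 0.486 to 0.814 on OCKS arrays, where 0 or 1 of 10 spots stood above background. The Myod1 spots were looser in PGCs, at 0.159 to 0.196, with 10 of 10 above background.

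The promoter of Myog (chr1:134289754-134290053, plus strand, GRCm38.p6) and that of Tnnt1 (chr7:4515926-4516225, minus strand), 2 of the 4 members that were higher in PGCs, are shown from RefSeq, from 250 bases before to 50 after the RefSeq start, with each E box (CANNTG, the motif of the MyoD family, which reads alike on both strands) in capitals:
Myog: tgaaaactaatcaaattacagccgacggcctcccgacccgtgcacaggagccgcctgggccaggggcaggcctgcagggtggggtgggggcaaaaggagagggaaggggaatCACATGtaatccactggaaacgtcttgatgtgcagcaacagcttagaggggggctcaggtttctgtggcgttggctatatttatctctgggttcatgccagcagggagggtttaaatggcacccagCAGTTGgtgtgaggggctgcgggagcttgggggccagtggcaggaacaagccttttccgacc
Tnnt1: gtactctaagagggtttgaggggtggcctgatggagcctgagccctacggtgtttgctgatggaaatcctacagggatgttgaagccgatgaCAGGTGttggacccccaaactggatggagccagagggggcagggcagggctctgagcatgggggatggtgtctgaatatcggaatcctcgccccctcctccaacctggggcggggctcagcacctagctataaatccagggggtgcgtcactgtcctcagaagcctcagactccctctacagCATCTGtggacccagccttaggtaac
Counted from the start, the matches begin at -138 and -12 in Myog and at -158 and 25 in Tnnt1. An E box stood in 8 of the 9 member promoters found in the table, all but that of Myh1, and in 72.3% of all 32851 promoters of this length.

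Of the 3 myosin heavy chains, 2 fell with OCKS and none with OS, and PGCs held more Myh8 and less Myh1 than control MEFs. Myh3, the embryonic chain, read 0.972, 3.10 and 4.75% with OCKS, 6.31, 6.87 and 6.85% with OS, 11.6, 11.5 and 12.1% in PGCs and 3.68, 2.61 and 3.94% in control MEFs. PGC arrays lay above all others and OS arrays above the control arrays, while the OCKS arrays spread over a wider range than the control arrays and overlapped them. None of its differences passed both thresholds. The log2 difference was -0.47 ± 0.44 with OCKS, 0.99 ± 0.44 with OS and 1.81 ± 0.45 in PGCs (limma, adjusted p = 0.365, 0.0705 and 0.00331).

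Its spread within the OCKS group rests on replicate 1, without which the OCKS difference was 0.19 and the PGC difference of 1.81 had a standard error of 0.18 and passed (limma, adjusted p = 7.15e-06). A different Myh3 probe gave -0.50 with OCKS, 0.62 with OS and 1.65 in PGCs, and the PGC difference passed there too (limma, adjusted p = 0.000727).

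Myh8, the perinatal chain, read 1.48, 1.79 and 1.56% with OCKS, 4.81, 4.40 and 4.33% with OS, 36.7, 41.5 and 36.5% in PGCs and 4.87, 3.07 and 4.49% in control MEFs. OS arrays lay within the upper part of the control range, OCKS arrays below it and PGC arrays far above. It fell by 1.34 ± 0.16 on the log2 scale with OCKS (limma, adjusted p = 2.81e-05) and was higher in PGCs by 3.23 ± 0.16, or 9.39-fold (adjusted p = 8.1e-09). With OS the log2 difference was 0.15, with a 95% interval of -0.20 to 0.50 (limma, adjusted p = 0.417). A dimmer Myh8 probe, at 0.572, 0.858 and 0.701% in PGCs and 0.571, 0.571 and 0.562% in control MEFs, gave a PGC difference of 0.30 that did not pass (limma, adjusted p = 0.277), so the 9.39-fold value belongs to the brighter probe alone.

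Myh1, the chain of fast IIx fibres, went the opposite way in germ cells. It read 0.317, 0.550 and 0.695% with OCKS, 2.67, 2.69 and 3.25% with OS, 0.111, 0.0965 and 0.0953% in PGCs and 2.75, 1.30 and 1.60% in control MEFs. No PGC array and 1 of 3 OCKS arrays stood above background, and control replicate 1 reached the OS range. Myh1 was at least 4.49-fold lower in PGCs (limma, adjusted p = 2.38e-07) and fell by 1.85 ± 0.30 on the log2 scale with OCKS (adjusted p = 0.000304). The OCKS call was lost without control replicate 1 and without control replicate 3 (limma, adjusted p = 0.00108 and 0.00105). With OS its log2 difference was 0.68 ± 0.30 (limma, adjusted p = 0.0706).

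These 3 genes lie in a row of 5 myosin heavy chain genes on chromosome 11, in the order Myh3, Myh2, Myh1, Myh4, Myh8. The other two are Myh2 of fast IIa and Myh4 of fast IIb fibres. Myh2 fell at least 4.19-fold with OCKS (limma, adjusted p = 7.26e-05), with log2 differences of -1.14 ± 0.42 with OS and -1.22 ± 0.43 in PGCs that did not pass. Myh4 read 30.7, 35.8 and 32.0% in PGCs and 0.378, 0.103 and 0.449% in control MEFs, where 1 of 3 arrays stood above background, and was higher by 6.98 ± 0.84 (limma, adjusted p = 1.43e-05). Neighbours in the row thus took opposite signs in PGCs, Myh1 lower and Myh4 and Myh8 higher. Probe sequences were not used here, and how far RNA of a related myosin or actin binds a probe was not tested.

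**Figure D3:**
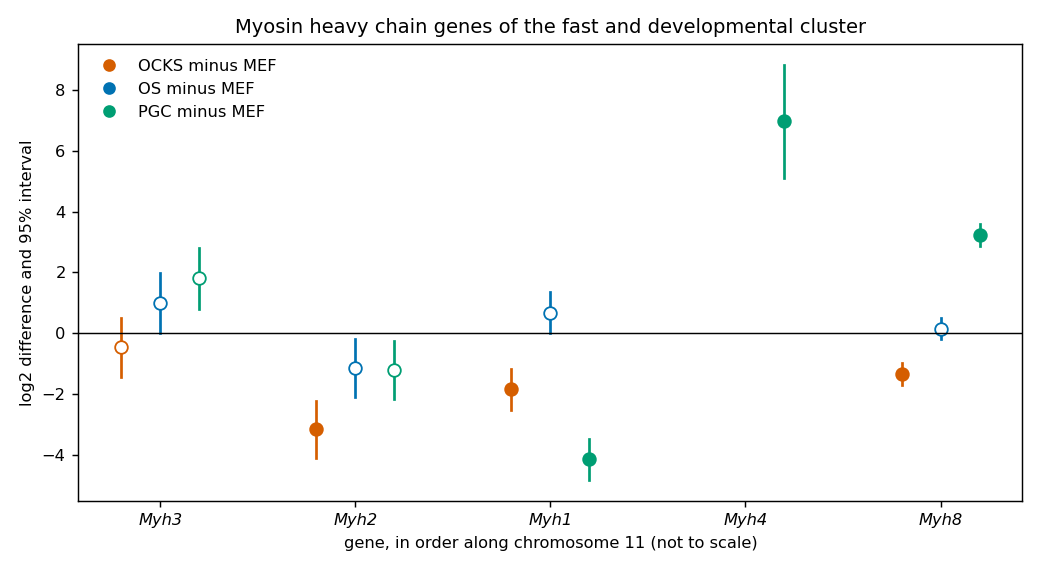
Log2 difference from control MEFs with its 95% interval for the 5 myosin heavy chain genes of the chromosome 11 row, for OCKS-treated MEFs, OS-treated MEFs and PGCs. Filled circles passed both thresholds, and Myh4 was not tested with either treatment. Myh2 (at least 4.19-fold), Myh1 (-1.85) and Myh8 (-1.34) fell with OCKS, while in PGCs Myh1 was lower (at least 4.49-fold) and Myh4 and Myh8 higher (6.98 and 3.23). The points of Myh2 with OCKS and Myh1 in PGCs are fitted values with no array of that group above background.

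Myh1 and Myh8 also had the smallest p of the 7 members tested between the treatments. OCKS minus OS was -2.53 ± 0.30 for Myh1 and -1.49 ± 0.16 for Myh8 (limma, adjusted p = 0.0151 and 0.00958), past 0.05 and short of 0.001, with Myh1 above background on 1 of 3 OCKS arrays. At 0.001 no gene of 15702 was called in this comparison, in either direction (0% called), and at 0.05 with a 2-fold change 12 genes were lower (0.0764%) and 3 higher (0.0191%), while 2907 had an unadjusted p under 0.05 (18.5%), among them 3 of the 7 members. For Myh3 the difference was -1.46 ± 0.44 (limma, adjusted p = 0.14). For all 3 the OCKS arrays lay below all OS arrays, as they did for 9.15% of the genes tested, with 11.3% above, and no member above. On the slide that held OCKS replicate 1 and OS replicate 1 together, the differences were -3.07 for Myh1, -1.70 for Myh8 and -2.70 for Myh3. They rest on 1 array of each treatment, and both arrays also enter the fit.

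The promoters of Myh1 (chr11:67199852-67200151, plus strand, GRCm38.p6, from RefSeq) and Myh8 (chr11:67276874-67277173, plus strand) are shown because these members differed between the treatments at 0.05, with the match to the MEF2 site, the motif of the MEF2 factors that act beside the MyoD family, in capitals:
Myh1: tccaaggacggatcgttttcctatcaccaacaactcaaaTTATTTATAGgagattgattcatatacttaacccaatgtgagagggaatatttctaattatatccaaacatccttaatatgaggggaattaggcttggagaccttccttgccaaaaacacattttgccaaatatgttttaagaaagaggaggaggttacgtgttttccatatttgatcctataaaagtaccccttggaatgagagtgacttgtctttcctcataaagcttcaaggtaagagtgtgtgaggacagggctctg
Myh8: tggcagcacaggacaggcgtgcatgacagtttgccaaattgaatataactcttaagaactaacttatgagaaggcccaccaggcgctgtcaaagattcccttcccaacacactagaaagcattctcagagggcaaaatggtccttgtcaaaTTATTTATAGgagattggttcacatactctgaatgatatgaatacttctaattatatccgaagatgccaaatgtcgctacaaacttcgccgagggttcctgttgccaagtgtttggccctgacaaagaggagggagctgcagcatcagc
Counted from the start, the match lies at -211 to -202 in Myh1 and at -99 to -90 in Myh8, inside a run of 22 bases that the promoters share. It overlaps a TATA box (TATAAA) on the opposite strand. A MEF2 site stood in 3 of 9 member promoters (Myh1, Myh8 and Ttn) and in 3.19% of all promoters, and a TATA box in 6 of 9 and 13.6% of all. A match is a description of the letters, not a site shown to be bound.

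Both actins read lower than in control MEFs on every OCKS, OS and PGC array, and the Acta1 differences were the largest of any member. Acta1, skeletal α-actin, read 27.3, 9.17 and 11.6% with OCKS, 17.0, 16.1 and 12.8% with OS, 2.09, 2.25 and 2.85% in PGCs and 1581, 1473 and 1436% in control MEFs. The highest treated array, OCKS replicate 1, stood far under the lowest control array, and the PGC arrays stood lower still. It fell by 6.71 ± 0.32 on the log2 scale with OCKS, or 105-fold, and by 98.7-fold with OS, a log2 difference of -6.62 ± 0.32 (limma, adjusted p = 6.07e-08 and 6.78e-08). In PGCs it was lower by 630-fold, a log2 difference of -9.30 ± 0.33 (limma, adjusted p = 5.93e-10). OCKS minus OS was -0.09, with a 95% interval of -0.80 to 0.63.

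Actc1, cardiac α-actin, which developing skeletal muscle also uses, read 2.82, 0.676 and 2.80% with OCKS, 2.43, 3.40 and 2.97% with OS, 0.837, 0.767 and 0.793% in PGCs and 6.83, 13.4 and 13.5% in control MEFs. All control arrays lay above all others, and OCKS replicate 2 was not well above background. It fell by 2.62 ± 0.48 with OCKS (limma, adjusted p = 0.000679) and was lower in PGCs by 13.4-fold, a log2 difference of -3.75 ± 0.49 (adjusted p = 2.86e-05). With OS the log2 difference of -1.88 ± 0.48 did not pass (limma, adjusted p = 0.00562), and it passed without OCKS replicate 2, which enters the common spread (adjusted p = 8.14e-05). The OCKS call was lost in 8 of the 12 fits that left out an array, those without control replicate 2 or 3 or any OS or PGC array (adjusted p up to 0.00385).

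Smooth muscle markers moved with the actins. Their summed signal was 415 to 1084% with OCKS, 437 to 546% with OS, 231 to 251% in PGCs and 37961 to 51201% in control MEFs, and 9, 10 and 9 of the 10 fell or were lower. All 10 were above background on at least 1 array of each MEF group, and Lmod1 was on no PGC array above background. Cardiac markers summed to 85.9 to 92.7% with OCKS, 70.5 to 90.9% with OS, 62.8 to 76.0% in PGCs and 139 to 160% in control MEFs. These markers were mixed gene by gene. Of the 10, 3 fell and 1 rose with OCKS, and 4 fell and 1 rose with OS. In PGCs 3 were lower and 3 higher (Gata4, Myh6 and Nppa). Acta2, smooth muscle α-actin, read 390, 81.2 and 158% with OCKS, 121, 146 and 106.5% with OS, 10.7, 14.2 and 15.4% in PGCs and 23020, 16957 and 17378% in control MEFs. The part of these cells or of their actin RNA in the Acta1 values was not tested.

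The promoters of Acta1 (chr8:123894726-123895025, minus strand, GRCm38.p6, from RefSeq) and Actc1 (chr2:114052826-114053125, minus strand) are shown as the only member promoters with a CArG box, the motif of serum response factor (SRF), which drives actin genes in muscle and in activated fibroblasts. It is in capitals:
Acta1: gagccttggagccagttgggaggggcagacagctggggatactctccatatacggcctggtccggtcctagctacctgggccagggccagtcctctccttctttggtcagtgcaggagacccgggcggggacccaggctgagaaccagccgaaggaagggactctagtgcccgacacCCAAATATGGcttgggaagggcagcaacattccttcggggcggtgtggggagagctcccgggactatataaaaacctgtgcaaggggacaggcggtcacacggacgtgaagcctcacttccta
Actc1: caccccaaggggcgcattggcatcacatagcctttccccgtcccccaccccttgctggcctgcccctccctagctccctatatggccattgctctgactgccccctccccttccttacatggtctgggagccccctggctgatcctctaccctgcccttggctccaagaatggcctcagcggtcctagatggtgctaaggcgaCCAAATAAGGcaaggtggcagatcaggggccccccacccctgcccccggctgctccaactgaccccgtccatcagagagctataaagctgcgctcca
Counted from the start, the match lies at -73 to -64 in Acta1 and at -47 to -38 in Actc1. A CArG box stood in 2 of 9 member promoters and in 1.63% of the 32851 promoters of this length, searched on both strands, and no match overlapped another motif searched.

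Tnnt1 was the 1 member that rose with both treatments, and it was higher in PGCs too. It encodes slow skeletal troponin T, which anchors the troponin complex on tropomyosin, and read 73.0, 63.6 and 62.7% with OCKS, 69.6, 76.7 and 68.2% with OS, 407, 434 and 441% in PGCs and 21.2, 21.1 and 24.6% in control MEFs. The treated arrays lay between control MEFs and PGCs with no overlap on either side, and overlapped each other. It rose by 1.57 ± 0.10 on the log2 scale with OCKS and 1.68 ± 0.10 with OS, or 2.98-fold and 3.21-fold (limma, adjusted p = 2.71e-07 and 1.88e-07), and was 19.2-fold higher in PGCs, by 4.26 ± 0.10 (adjusted p = 3.62e-11). OCKS minus OS was -0.11, with a 95% interval of -0.32 to 0.10. These calls held under each alternative tried.

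The next gene on chromosome 7, looked at after the Tnnt1 values were seen, is Tnni3, cardiac troponin I. It read 7.62, 9.195 and 6.52% with OCKS, 5.26, 5.41 and 6.61% with OS, 3.53, 3.72 and 3.25% in PGCs and 2.90, 2.20 and 2.87% in control MEFs. It rose by 1.55 ± 0.15 with OCKS and 1.12 ± 0.15 with OS (limma, adjusted p = 8.39e-06 and 9.3e-05), and the PGC difference of 0.40 ± 0.16 did not pass (adjusted p = 0.0325). Tnnt2, the cardiac and embryonic troponin T on chromosome 1, went the other way and fell by 4.03 ± 0.18 with OCKS and 4.22 ± 0.18 with OS (limma, adjusted p = 4.1e-08 and 3.2e-08).

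Ttn, the giant spring of the sarcomere, was well above background in PGCs only. It read 3.85, 6.02 and 5.69% in PGCs, while OCKS arrays (0.292, 0.451 and 0.343%), OS arrays (0.220, 0.122 and 0.117%) and control MEF arrays (0.165, 0.384 and 0.302%) all failed to stand well above background. It was at least 12.3-fold higher in PGCs than in control MEFs (limma, adjusted p = 5.2e-07). The gene has 4 probes, which did not behave alike. A different probe was above background on 3 of 3 PGC arrays and gave a log2 difference of 3.30 ± 0.29 (limma, adjusted p = 1.05e-06), the next reached background on 2 PGC arrays, and the last, for a transcript with its own accession, on no array of any group.

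Des, desmin, the intermediate filament of all muscle, was lower wherever it was compared with control MEFs. It read 7.49, 3.86 and 5.48% with OCKS, 4.77, 6.51 and 4.64% with OS, 2.70, 3.21 and 2.94% in PGCs and 14.8, 15.4 and 16.0% in control MEFs. Control arrays lay above all others, PGC arrays below all others, and the treatments overlapped. It fell by 1.51 ± 0.21 on the log2 scale with OCKS and 1.55 ± 0.21 with OS, or 2.84-fold and 2.93-fold (limma, adjusted p = 0.000103 and 8.82e-05), and was 5.23-fold lower in PGCs, a log2 difference of -2.39 ± 0.21 (adjusted p = 1.23e-06). OCKS minus OS was 0.05, with an interval of -0.42 to 0.51. The 10 spots of its probe differed by an SD of 0.0511 to 0.100 on the log2 scale, less than the replicates of the treated groups did.

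On the slide that held PGC replicates 2 and 3 with control replicates 2 and 3, the PGC differences were close to those of all arrays, at -9.16 for Acta1, -4.11 for Actc1, -2.35 for Des, 4.26 for Tnnt1, 3.39 for Myh8 and 3.10 for Myog. Myh1 was lower and Ttn higher there too. Those arrays also enter the fit over all arrays, so these differences are not independent of it. The treated cultures never shared a slide with control cultures. When slide entered the fit as a random block, the member calls of both treatments held apart from Actc1 with OCKS, which was lost (limma, adjusted p = 0.00196). Since no slide held both treated and control cultures, this fit cannot tell a slide effect from a treatment effect. When arrays were scaled to 8 spike-in probes instead of their 75th percentile, the median of all genes was 0.15 with OCKS, 0.61 with OS and -0.12 in PGCs. The falls of Actc1, Des, Myh1 and Myh8 with OCKS and of Des with OS then lost their calls with the same sign, and those of Acta1, Myod1 and Myog with OCKS and of Acta1 with OS kept theirs. After normexp background correction with an offset of 50, the falls of Des, Myh1, Myh8, Myod1 and Myog with OCKS lost their calls, at -0.99, -0.36, -0.45, -0.43 and -0.30. The PGC differences of Myh1 and Ttn lost theirs too, at -0.55 and 0.85. Des and Myod1 with OCKS missed only the 2-fold change (limma, adjusted p = 9.6e-06 and 0.000122). So did Myh1 and Ttn in PGCs (limma, adjusted p = 0.000927 and 3.97e-06). Myh1, Myh8 and Myog with OCKS missed both thresholds. The cause was not tested.

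The wider programme was read from 7 lists of other muscle genes, with 97 genes of which 93 have a probe. With OCKS 29 of the 74 tested fell and 8 rose, with OS 25 of 75 fell and 5 rose, and in PGCs 30 of 81 were lower and 17 higher. Over all genes tested, 14.6% fell and 11.2% rose with OCKS, 13.4% fell and 10.7% rose with OS, and 25.2% were lower and 31.8% higher in PGCs, the shares against which the counts of each list below are to be read. The median log2 difference was -0.74, -0.64 and -0.25, beside -0.19, -0.21 and 0.30 over all genes tested. Between the treatments 0 of 72 were called, like 0 of all genes.

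**Figure D4:**
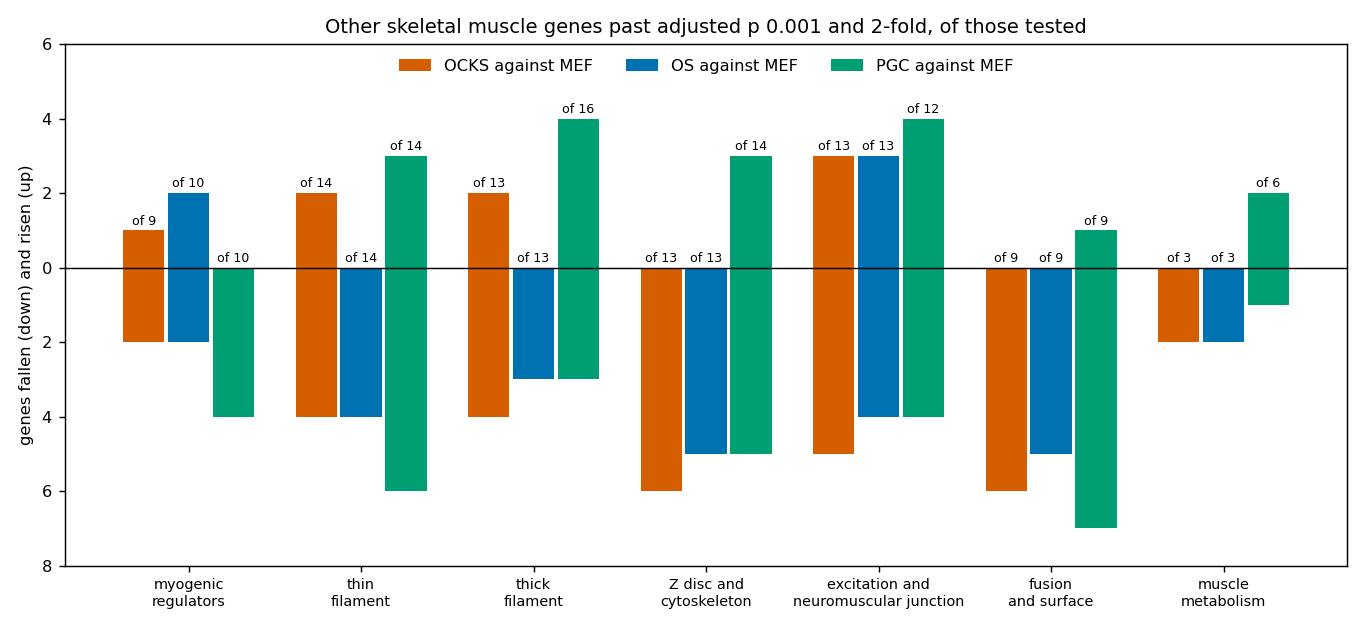
Number of other skeletal muscle genes past both thresholds in 7 lists, risen above the line and fallen below it, for OCKS-treated MEFs, OS-treated MEFs and PGCs, each against control MEFs. The number above a bar is how many genes of the list were tested. Fusion and surface genes fell for 6 of 9 with OCKS and 5 of 9 with OS, and 7 of 9 were lower in PGCs.

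Of 9 surface and fusion genes tested, 6 fell with OCKS and 5 with OS, and in PGCs 7 were lower and 1 higher. Cdh15, the M-cadherin of satellite cells and myoblasts, fell by 3.68 ± 0.18 with OCKS and 3.46 ± 0.18 with OS and was lower in PGCs, at -1.96 ± 0.18 (limma, adjusted p = 5.68e-08, 8.56e-08 and 1.31e-06). Ncam1, an adhesion molecule that neurons share, read 160, 125 and 158% with OCKS, 265, 360 and 215% with OS, 16.8, 19.2 and 21.7% in PGCs and 1224, 1233 and 1285% in control MEFs. Its 4 groups did not overlap (limma, adjusted p = 1.77e-07, 2.11e-06 and 1.71e-10 for OCKS, OS and PGCs against control MEFs). Megf10, a receptor of satellite cells, fell by 2.00 ± 0.21 with OCKS and 2.51 ± 0.21 with OS.

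Of 12 regulators, Pax3, which marks muscle and neural crest precursors, fell by 2.39 ± 0.27 with OCKS and 1.87 ± 0.27 with OS and was lower in PGCs, at -3.23 ± 0.28 (limma, adjusted p = 2.38e-05, 0.000151 and 8.42e-07). Lbx1, a factor of migrating limb muscle precursors, fell by 1.22 ± 0.14 and 1.14 ± 0.14 with OCKS and OS (limma, adjusted p = 2.15e-05 and 3.77e-05). In all, 2 of 9 fell and 1 rose with OCKS, and 2 of 10 fell and 2 rose with OS. In PGCs 4 of 10 were lower and 0 higher.

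In the thin filament list 4 of 14 genes fell with each treatment, Tnnt2, the tropomyosins Tpm1 and Tpm2 and the actin-anchoring Nrap. With OCKS 2 rose, the filament-capping Tmod1 by 2.16 ± 0.26 and the fast troponin I gene Tnni2 by 1.23 ± 0.14 (limma, adjusted p = 3.83e-05 and 2.65e-05), and with OS 0 of 14 passed as risen. Both also lay above control MEFs with OS without overlap. Tmod1, at 1.36 ± 0.27, missed the adjusted p, and Tnni2, at 0.86 ± 0.14, the 2-fold change (limma, adjusted p = 0.00102 and 0.000377). Neither was called between the treatments (limma, adjusted p = 0.159 and 0.206). Tpm2 fell by 2.71 ± 0.11 with OCKS and 2.68 ± 0.11 with OS, and was lower in PGCs, at -9.47 ± 0.11 (limma, adjusted p = 2.31e-08, 2.75e-08 and 1.47e-12). Tropomyosins also serve fibroblasts and smooth muscle. In PGCs 6 of 14 were lower, while the fast troponin C gene Tnnc2, the nebulin gene Neb and the slow troponin I gene Tnni1 were higher.

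In the thick filament list 4 of 13 genes fell and 2 rose with OCKS, 3 of 13 fell with OS, and in PGCs 3 of 16 were lower and 4 higher. Myom1, myomesin of the M band, fell by 5.81 ± 0.51 with OCKS and 4.77 ± 0.51 with OS (limma, adjusted p = 3.28e-06 and 1.46e-05), with 1 of 3 OCKS arrays and 2 of 3 OS arrays above background. PGC arrays of Myom1 read 23.7, 28.2 and 28.8%, beside 18.2, 18.2 and 17.1% in control MEFs. Its relative Myom3 had the largest PGC rise of the list genes tested, at 504, 656 and 542% in PGCs against 0.806, 0.475 and 0.702% in control MEFs, a log2 difference of 9.77 ± 0.40 (limma, adjusted p = 1.77e-09), and it also rose by 2.44 ± 0.39 with OCKS (adjusted p = 0.000272). Mybpc1, slow myosin-binding protein C, fell by 1.42 ± 0.14 with OCKS and 1.12 ± 0.14 with OS.

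Of 13 Z disc and cytoskeleton genes tested, 6 fell with OCKS and 5 with OS, and the other 7 and 8 did not pass in either direction. The α-actinin-binding Pdlim3 fell by 3.52 ± 0.21 and 3.15 ± 0.21 and the muscle ubiquitin ligase gene Fbxo32 by 2.33 ± 0.14 and 2.54 ± 0.14 with OCKS and OS. In PGCs 5 of 14 were lower and 3 higher. Filamin C (Flnc) was lower in PGCs, at a log2 difference of -5.67 ± 0.12, as was Ankrd1, a stretch-responsive gene, at -8.92 ± 0.37 (limma, adjusted p = 2.04e-11 and 1.87e-09).

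In the excitation list 5 of 13 fell and 3 rose with OCKS, and 4 of 13 fell and 3 rose with OS, while in PGCs 4 of 12 were lower and 4 higher. Cav3, the caveolin of muscle membrane, fell by 3.20 ± 0.58 and 3.78 ± 0.59 and was at least 95.7-fold lower in PGCs (limma, adjusted p = 0.000626, 0.000217 and 1.02e-06). The 3 that rose, with either treatment, were Chrnd, Musk and Stac3. Musk, the kinase that organizes the neuromuscular junction, rose by 2.09 ± 0.37 with OCKS and 2.02 ± 0.37 with OS and was higher in PGCs by 2.04 ± 0.37 (limma, adjusted p = 0.000502, 0.000672 and 0.000404), with 1 of 3 control arrays above background. The calcium release channel Ryr1 and its voltage sensor Cacna1s were higher in PGCs, by 2.63 ± 0.23 and 1.87 ± 0.16 on the log2 scale (limma, adjusted p = 9.96e-07 and 1.01e-06).

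Of the metabolic genes, 3 were bright enough to test with treatment. Eno3, the muscle enolase, fell by 2.05 ± 0.15 with both treatments (limma, adjusted p = 8.15e-07 with OCKS and 8.96e-07 with OS), and Pgam2, the muscle phosphoglycerate mutase, by 1.47 ± 0.14 and 1.62 ± 0.15. In PGCs Pgam2 was lower, at -4.96 ± 0.15 (limma, adjusted p = 1.65e-10), and Ampd1, the muscle AMP deaminase, was at least 2.93-fold higher (adjusted p = 0.000241).

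The genes whose pattern over the 12 arrays came nearest to the 3 most variable members were sought by Pearson's r of the log2 values. The search covered 7061 named genes outside the members and the lists of other skeletal muscle genes. Marker genes of other cell types stayed in, among them the smooth muscle marker Acta2. The r is a description over arrays that fall into the same 4 groups for every gene. Myog and Ttn are among these 3 by group means that are not well above background at their low end, in OCKS- and OS-treated MEFs. For Acta1, whose group means spanned 9.30 on the log2 scale, these were Cyb5r1, Acta2 and Myl12a (r = 0.996, 0.996 and 0.995). For Myog they were Olfr297, Gprin1 and Ptpro (r = 0.986, 0.982 and 0.978), and for Ttn Psors1c2, Lrrc4b and Tex22 (r = 0.985, 0.983 and 0.982). Gprin1 averaged 0.894% with OCKS, 2.08% with OS, 92.2% in PGCs and 7.17% in control MEFs, the same order of groups as Myog.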

How the data were processed

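RNA of 12 samples was hybridized to single-colour Agilent arrays. The authors' scanner output was made with Feature Extraction 10.7.3.1, and its processed signal intensity, median and background intensity and spot flags were used as deposited. The deposited value table holds log2 values of the same arrays. Of its 12 columns, 10 correlated with the scanner output at r of 0.9 or more and entered an alternative. The other 2, PGC replicates 2 and 3 (r = 0.0129 and 0.521), were left out, which leaves 1 PGC array there.

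Here log2 of the processed signal minus the array's 75th percentile was taken. Of 39429 probes, 83 with flagged spots were left out, spots of a probe were averaged, and 25986 probes were named through RefSeq accessions, giving 19714 genes. The brightest probe stood for a gene. limma 3.58.1 (R 4.3.3) fitted all 4 groups at once. A gene was tested if well above background on all 3 arrays of either group, and called at an adjusted p under 0.001 and 2-fold. Standard errors are those of the fit, whose precision is limited by the number of arrays. Nothing beyond the design text says how far replicates were separate cultures or litters, so p-values measure the spread between these samples. A bound ("at least N-fold") replaces a fold where a group was not well above background on any array, set against each array's lowest signal well above background. The p beside a bound, and the call, are those of the fitted difference. The fit was tested on simulated data.

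The named genes were all members, up to 2 called genes with the largest change per list and comparison, and the 3 most similar genes of the 3 most variable members. Other names are examples chosen after their values were seen. A gene of the lists that the rule names is not reported here. The members and lists were chosen with earlier results of these data known. Promoters are RefSeq sequences of GRCm38.p6, found for 9 members. Alternatives were other scalings (spike-in, quantile, median), normexp, other filters, probes and thresholds, the replicate number or slide as a block, 2-group fits and leaving out each array.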

Additional observations from a re-analysis of the deposited data

Results flagged for a closer look

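A difference between the treatments, by its own limma test, was found for Myh1, the fast IIx myosin, and Myh8, the perinatal myosin. OCKS minus OS was -2.53 on the log2 scale for Myh1 (limma, adjusted p = 0.0151) and -1.49 for Myh8 (limma, adjusted p = 0.00958), and each was lower on 3 of 3 OCKS arrays than on any OS array. Both passed 0.05 and neither passed 0.001. Myh1 was well above background on 1 of 3 OCKS arrays and was tested through the OS arrays. The size of its difference thus rests in part on signal not well above background.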

How the results depend on the processing

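No called member changed direction under any alternative. The 7 falls with OCKS became 2 after normexp, 3 with spike-in scaling, 3 with background required in both groups and 2 with only the 2 groups fitted. They ranged from 4 to 7 when 1 array was left out, and were 4 without MEF replicate 3 (Actc1, Myh1 and Myog lost) and 5 without MEF replicate 2 (Actc1 and Myog lost). The 2 falls with OS became 1 with spike-in scaling and 5 at an adjusted p under 0.05, and ranged from 2 to 3. The 0 falls between OCKS and OS became 2 (Myh1 and Myh8) with spike-in scaling and at 0.05. In each of these settings 12 of all 15702 genes tested fell. Spike-in scaling also moved the median OCKS minus OS difference of all genes to -0.46, from 0.012 in the main setting. The PGC rises ranged from 4 to 5, with Myh3 called without OCKS replicate 1 or 3.

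Values that did not pass changed sign as follows. Myod1 in PGCs was -0.15 after quantile normalization and -0.021 after normexp. Myh8 with OS was -0.31 with the mean of its probes and -0.053 without MEF replicate 2 (up to 0.28 without MEF replicate 1), and Myh3 with OCKS was 0.19 without OCKS replicate 1 and -0.95 without OCKS replicate 3. For OCKS minus OS, Des was -0.43 with spike-in scaling and ranged from -0.19 to 0.29 when 1 array was left out. Acta1 was 0.016 with the slide as a random block, 0.68 with it as a fixed block, and ranged from -0.55 to 0.23 when 1 array was left out. Actc1 was 0.21 and Tnnt1 0.069 with the slide as a fixed block, which could be run only for this comparison and PGCs. The causes were not tested.

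With the deposited value table, where 1 PGC array remained and was assumed to vary like the other groups, the PGC calls of Actc1 and Myog were lost (log2 differences of -3.76 and 3.04). The OCKS calls of Actc1 and Myh1 were lost there too (-2.60 and -1.83). Myh1 with OCKS also lost its call after quantile normalization (-1.67, limma, adjusted p = 0.00541). Actc1 with OCKS lost its call with no filter on dim probes (limma, adjusted p = 0.00115).

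Replicate numbers are not said to pair the samples. Deviations of same-numbered arrays from their group means correlated at -0.23 to 0.35. These values cannot decide whether the samples were paired, since the deviations within a group cancel out by construction. With a replicate block 5 members fell with OCKS, and Actc1 and Myh1 were lost (limma, adjusted p = 0.0018 and 0.00112). Over all genes, spike-in scaling gave 1227 falls with OCKS (2353 in the main setting), and 4335 rises and 643 falls with OS (1739 and 2173). After normexp 1384 genes fell with OCKS and 1314 with OS. OCKS minus OS, with 0 genes called, gave 8 rises and 33 falls without OS replicate 3. Signals near background limit Myod1, Myog and Myh1 in treated MEFs.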
